A study of Homo sapiens with 12 samples.

Results

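The 10 genes described here write, copy, read or remove methyl groups on cytosine in DNA. They are the methyltransferases DNMT1, DNMT3A and DNMT3B, the maintenance cofactors UHRF1 and HELLS, the oxidases TET1, TET2 and TET3, and the methyl-CpG readers MBD2 and ZBTB33. They were chosen by name, with earlier results of these data known, and each was read from the brightest array row annotated to it alone. All 10 were measured, among 18417 genes in all.

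The study used K562, an established erythroleukaemic line from a chronic myeloid leukaemia (called KS), and K562/ADR (called KA), a multidrug-resistant subline raised with adriamycin and kept in 50 nM of that anthracycline. Each line was measured untreated and after 5 nM decitabine for 72 hours, with 3 Affymetrix arrays in each of the 4 groups. KA is a single subline, so the line and the adriamycin of its medium cannot be told apart. What the untreated cells were given, and whether adriamycin stayed on during treatment, is not in the labels. Nor do they tell whether the 3 arrays of a group stem from separate cultures, so every p-value rests on the spread among these arrays alone, which may be technical.

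DNMT1 copies the methylation pattern onto the new strand behind the replication fork. UHRF1 recognises the hemimethylated sites and recruits DNMT1, and HELLS is a chromatin remodeller that opens nucleosomal DNA to methylation. DNMT3A and DNMT3B set methylation at unmethylated sites, while the TET enzymes oxidise methylcytosine so that it is lost by repair or by replication. MBD2 binds methylated CpG and brings in the NuRD deacetylase complex, and ZBTB33 (Kaiso) is a zinc finger repressor that binds methylated DNA. Decitabine is a cytidine analogue which, once built into DNA, traps the methyltransferases as proteins, an event that an array of transcripts does not measure.

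Promoter sequence is shown first for the 3 genes of the maintenance machinery, because each carries a word of the E2F binding motif, a mark of genes used in S phase, in a listed start window, and no listed window of the other 7 genes does. RefSeq's table (GRCh38.p14) gave windows from 250 bases before to 50 bases after a transcription start for all 10 genes. The windows did not reach the annotated first base of DNMT3B, UHRF1 or TET3, and for DNMT3B the 1 listed start (base 32779852) lies inside the gene, which begins at base 32762385, so its upstream promoter was not searched. The words searched on both strands were TTTCCCGC, TTTCGCGC, TTTGGCGC and TTTGCCGC, and 3.31% of the 35116 windows of this length held at least 1 of them. Of the 27305 genes with a window, 3.99% held at least 1 of these words. The 100-base stretches run from 94 bases before the start to base 6 after it, read on the gene's strand, with the words in capitals. DNMT1 lies on the minus strand of chromosome 19 (chr19:10194948-10195047), UHRF1 on the plus strand of chromosome 19 (chr19:4909407-4909506, the first of its 3 listed starts), and HELLS on the plus strand of chromosome 10 (chr10:94545694-94545793).
DNMT1: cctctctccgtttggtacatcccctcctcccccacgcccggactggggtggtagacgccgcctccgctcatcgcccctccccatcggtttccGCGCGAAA
UHRF1: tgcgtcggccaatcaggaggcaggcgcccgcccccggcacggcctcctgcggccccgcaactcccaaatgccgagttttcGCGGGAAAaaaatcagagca
HELLS: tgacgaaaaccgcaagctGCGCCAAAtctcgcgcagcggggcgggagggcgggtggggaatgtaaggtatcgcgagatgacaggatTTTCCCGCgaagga

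In DNMT1 the word spans bases -2 to 6. In the UHRF1 stretch it spans -14 to -7, and a further word lay at -160 to -153 of another listed start. HELLS carries words at -76 to -69 and at -8 to -1. No match overlapped another. The word CTCGCGAG, the palindromic core that ZBTB33 binds, was also searched on both strands and stood in 1.02% of the windows. Of the 10 genes it stood in 1, at -149 to -142 of the second listed TET2 start, and overlapped no E2F word. Over all genes with a window it stood in 1.23%. A match of letters is a description of the window and does not show that a factor binds there.

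The number of CpG in a 300-base window had a median of 14 over all windows. Of the genes with 1 listed start, DNMT1 held 30, HELLS 22, MBD2 32 and ZBTB33 33 CpG, and the internal DNMT3B start held 3. Windows ran from 36 to 46 CpG for UHRF1, 18 to 46 for DNMT3A, 6 to 11 for TET1, 13 to 35 for TET2 and 33 to 45 for TET3.

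All values below are the deposited log2 signals, on which a difference of 1 is a doubling, and a level is compared only with the same gene's level in another group. The medians of the 12 arrays ranged from 4.96 to 5.01, and correlations within groups from 0.990 to 0.995 across all rows. The mean of 9 erythroid and K562 marker genes was 8.98 to 9.01 on untreated KS arrays and 9.13 to 9.18 on the arrays of the other 3 groups. Of these 9 markers, 5 rose with decitabine in KS and 4 were higher in untreated KA than in untreated KS. Over all genes 14.6% rose with decitabine in KS and 11.6% were higher in untreated KA. The mean of 6 epithelial markers was 7.15 to 7.33 on KS arrays and 7.36 to 7.44 on KA arrays, and K562 is known to express keratins. The lymphoid mean was 3.72 to 4.07 and the fibroblast and endothelial mean 4.97 to 5.19, with groups that overlapped. The part of these shifts in the results below was not tested. Untreated KS replicate 3 lay 25.1% of the way towards the treated KS arrays over genes raised by the drug and 33.8% over genes lowered, and treated KS replicate 1 lay at 85.3% and 80.3%. In KA, treated replicate 1 lay at 89.5% and 87.1%, treated replicate 3 at 107.6% and 80.6%, and untreated replicate 3 at 4.44% and 22.0%. Those KA values for lowered genes rest on only 9, 5 and 4 genes. Calls of the 10 genes that change without the KS arrays named here are given with and without them.

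With decitabine, 4 of the 10 genes fell in KS and 1 rose, where 30.3% of all genes tested were called (limma over all 18417 genes, adjusted p under 0.05), 15.7% lower and 14.6% higher. DNMT1, DNMT3B, HELLS and MBD2 fell and TET3 rose. In KA 1 of the 10, UHRF1, fell, where 14.6% of all genes were called, 9.66% higher and 4.96% lower. The median change of the 10 genes was -0.15 in KS and -0.08 in KA, beside -0.01 and -0.02 over all genes. The response differed between the lines for 1 of the 10, DNMT3B, where 6.74% of all genes were called, 4.60% with the larger value in KA and 2.14% with the larger value in KS.

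Between the untreated lines 2 of the 10 differed, HELLS and ZBTB33, where 25.7% of all genes did, 11.6% higher and 14.1% lower in KA. Between the treated lines 3 of the 10 differed, DNMT3B, TET3 and ZBTB33, where 27.0% of all genes did, 15.1% higher and 11.9% lower in KA. Counts of 1 to 3 in 10 lie near those background shares. In a set of 10 genes, no count of calls here, including the 5 with decitabine in KS, is a result about the set. In all, 7 of the 10 genes were called in at least 1 of the 5 comparisons, where 48.9% of all genes were, and DNMT3A, TET1 and TET2 in none. Fewer cells that use a gene and less RNA of it per cell cannot be told apart in these bulk samples.

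**Figure D1:**
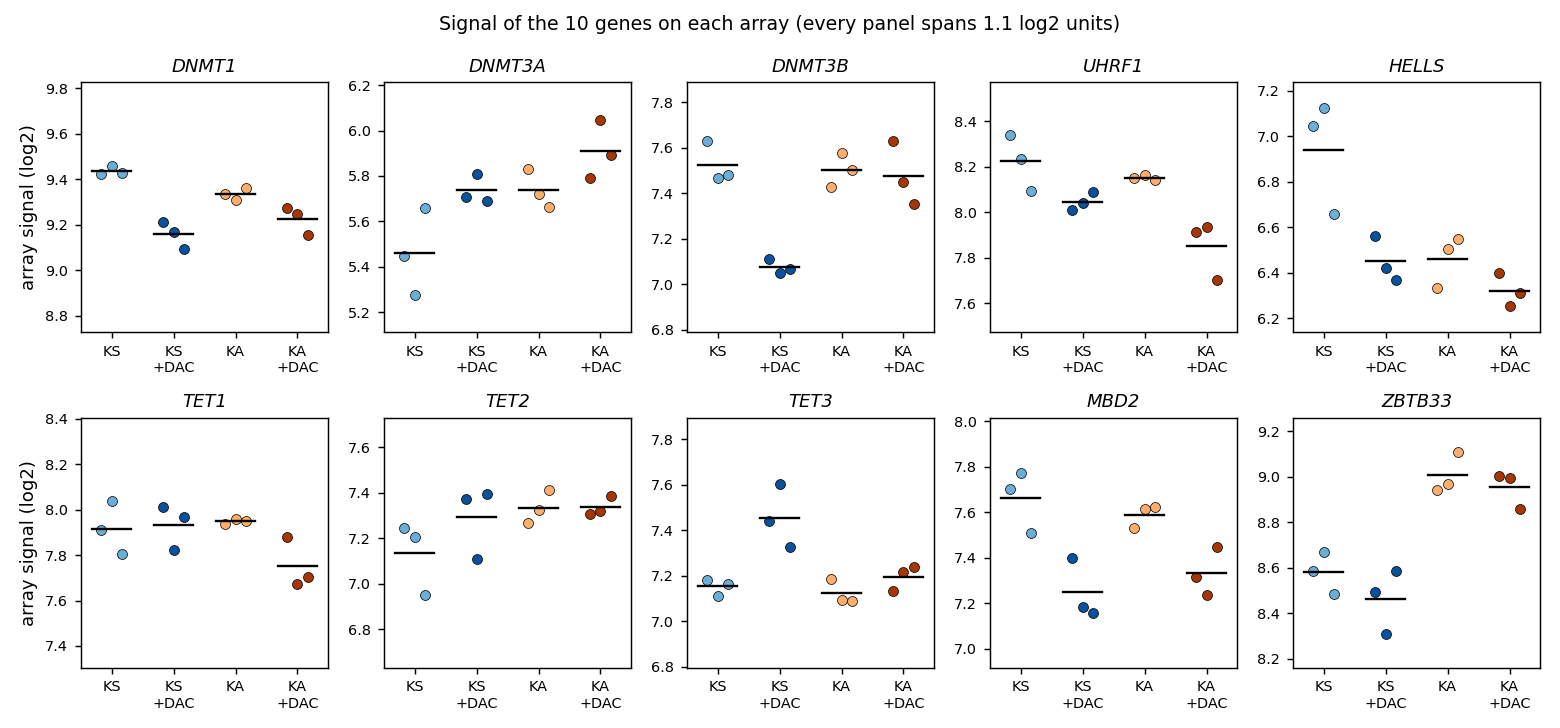
Signal of each of the 10 genes (log2, vertical axis) on every array, by group (horizontal axis; DAC is decitabine); points are arrays, bars are group means over 3 arrays, and every panel spans the same range of log2 units. Treated KS arrays of DNMT3B lie between 7.05 and 7.11, below all 9 other arrays, and the 6 KA arrays of ZBTB33 lie above the 6 KS arrays.

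DNMT1, the maintenance methyltransferase (chromosome 19, 10133346 to 10194953), read 9.42, 9.46 and 9.43 on the untreated KS arrays and 9.21, 9.17 and 9.09 on the treated ones. In KA it read 9.33, 9.31 and 9.36 untreated and 9.27, 9.25 and 9.16 treated. Every treated array lay below every untreated array of its line, and the untreated groups did not overlap each other either. DNMT1 fell in KS by 0.28 ± 0.06 (SE, n = 3 per group; 95% interval -0.42 to -0.14), a 1.21-fold drop (limma adjusted p = 0.00421). In KA the change was -0.11 ± 0.06 (interval -0.25 to 0.03; limma adjusted p = 0.281) and was not called. The responses of the lines differed by 0.17 (interval -0.02 to 0.36; adjusted p = 0.283), which was not called.

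UHRF1, the hemimethylated-DNA reader that recruits DNMT1 (chromosome 19, 4903080 to 4962154), was the only one of the 10 genes called in KA. It read 8.15, 8.16 and 8.14 on untreated KA arrays and 7.91, 7.94 and 7.70 on treated ones, so the groups did not overlap. The change was -0.30 ± 0.08 (interval -0.48 to -0.12), a 1.23-fold drop (limma adjusted p = 0.0262). The call was lost without untreated KA replicate 1, 2 or 3 (adjusted p = 0.0694, 0.0800 and 0.0600) and without treated KA replicate 3 (adjusted p = 0.110), whose value is the lowest.

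In KS, UHRF1 read 8.34, 8.23 and 8.09 untreated and 8.01, 8.04 and 8.09 treated. The groups touched at 8.09 without overlapping, and the change of -0.18 ± 0.08 (limma adjusted p = 0.126) was not called; without untreated KS replicate 3 it was -0.24 (adjusted p = 0.0421). The difference between the responses was -0.12 (interval -0.37 to 0.13). A dimmer row annotated to UHRF1, for which the array annotation lists no RefSeq transcript while it lists 5 for the brighter row, was called in no comparison. Its change in KA was -0.27 ± 0.15 (limma adjusted p = 0.275).

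HELLS (chromosome 10, 94545788 to 94613905) had the largest span of group means among the 10 genes, 0.62. It read 7.04, 7.12 and 6.66 on untreated KS arrays, 6.56, 6.42 and 6.37 on treated KS arrays, 6.33, 6.51 and 6.55 on untreated KA arrays and 6.40, 6.25 and 6.31 on treated KA arrays. Untreated KS stood above the other 3 groups, which overlapped one another in order. The fall with decitabine in KS was 0.49 ± 0.11, or 1.41-fold (interval -0.73 to -0.25; limma adjusted p = 0.00454). HELLS was also 1.39-fold lower in untreated KA than in untreated KS, by -0.48 ± 0.11 (interval -0.72 to -0.24; limma adjusted p = 0.00619).

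Both of these HELLS comparisons rest on the same untreated KS arrays. Untreated KS replicate 3 was the lowest of them, and without it the changes were -0.63 with decitabine and -0.62 between the lines (limma adjusted p = 0.000218 and 0.000306). In KA the change with decitabine was -0.14 ± 0.11 (interval -0.38 to 0.10). The difference between the responses was 0.35 (interval 0.01 to 0.69; adjusted p = 0.211) and was not called, but without untreated KS replicate 3 it was 0.49 (limma adjusted p = 0.0241). Between the treated lines HELLS differed by -0.13 (interval -0.37 to 0.11).

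Over all 12 arrays, the genes whose centred values ran closest to those of HELLS were RAD1, a subunit of a DNA damage checkpoint clamp, THUMPD3, and POLE3, a subunit of DNA polymerase epsilon. Their root mean square differences from HELLS were 0.06, 0.08 and 0.08 log2 units, among 4964 genes whose group means spanned at least 0.5. RAD1 had group means of 7.82 in untreated KS, 7.40 in treated KS, 7.46 in untreated KA and 7.25 in treated KA.

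DNMT3B, a de novo methyltransferase (chromosome 20, 32762385 to 32809356), read 7.63, 7.47 and 7.48 on untreated KS arrays and 7.11, 7.05 and 7.07 on treated ones. It read 7.43, 7.58 and 7.50 on untreated KA arrays and 7.63, 7.45 and 7.35 on treated ones. The treated KS arrays lay below every other array, and the other 3 groups overlapped. DNMT3B fell in KS by 0.45 ± 0.08, or 1.37-fold (interval -0.63 to -0.27; limma adjusted p = 0.000962). In KA the change was -0.02 ± 0.08 (interval -0.20 to 0.15; adjusted p = 0.884).

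The DNMT3B responses differed between the lines by 0.43 ± 0.12 (interval 0.18 to 0.68; limma adjusted p = 0.0453). The size was 0.35 to 0.49 when single arrays were left out, and the call was kept only without untreated KS replicate 3 or treated KA replicate 3; without each of the other 10 arrays the adjusted p was 0.0606 to 0.112. After treatment DNMT3B was 1.32-fold higher in KA than in KS, by 0.40 ± 0.08 (interval 0.23 to 0.58; limma adjusted p = 0.00222). The untreated lines differed by -0.02 (interval -0.20 to 0.15). The fall of DNMT3B in KS, the difference of responses and the difference between the treated lines use the same treated KS arrays.

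DNMT3A, the other de novo methyltransferase (chromosome 2, 25227874 to 25342590), read 5.45, 5.28 and 5.66 on untreated KS arrays and 5.71, 5.81 and 5.69 on treated ones. It read 5.83, 5.72 and 5.66 on untreated KA arrays and 5.79, 6.05 and 5.89 on treated ones. Untreated KS was the lowest group and did not overlap treated KS or untreated KA, but DNMT3A was called in no comparison. The change in KS was 0.28 ± 0.10 (limma adjusted p = 0.0529) and in KA 0.17 ± 0.10 (adjusted p = 0.284). Without untreated KS replicate 3, the highest of its group, the KS change was 0.37 (limma adjusted p = 0.00893) and the line difference 0.38 (adjusted p = 0.0105).

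**Figure D2:**
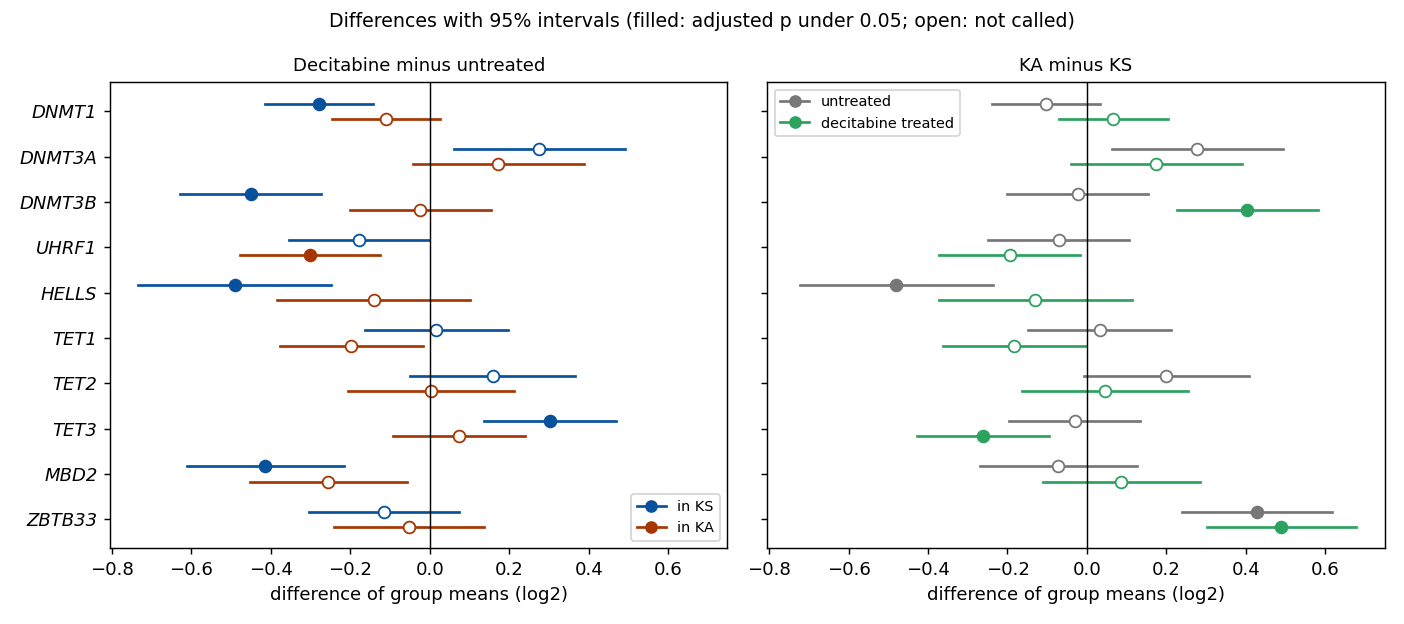
Difference of group means (log2, horizontal axis) with 95% intervals for each of the 10 genes (vertical axis), for decitabine minus untreated in each line (left) and KA minus KS (right); filled points had an adjusted p under 0.05 over all genes and open points did not. The DNMT3B interval runs from -0.63 to -0.27 in KS and from -0.20 to 0.15 in KA.

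Among the TET oxidases, TET3 (chromosome 2, 73983631 to 74135498) was the only one of the 10 genes called higher with decitabine in the fit as reported, from each gene's brightest row. It read 7.18, 7.11 and 7.17 on untreated KS arrays and 7.44, 7.60 and 7.33 on treated ones. On KA arrays it read 7.18, 7.09 and 7.09 untreated and 7.13, 7.22 and 7.24 treated. Treated KS stood above the other 3 groups, which overlapped. The rise in KS was 0.30 ± 0.08, or 1.23-fold (interval 0.14 to 0.47; limma adjusted p = 0.00854), and the change in KA was 0.07 ± 0.08 (interval -0.09 to 0.24).

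The TET3 responses differed by -0.23 (interval -0.46 to 0.00; adjusted p = 0.229), which was not called. After treatment TET3 was 1.20-fold lower in KA than in KS, by -0.26 ± 0.08 (limma adjusted p = 0.0215). That call was lost without treated KS replicate 2, the highest array (adjusted p = 0.0965), or treated KA replicate 1 (adjusted p = 0.0833). The rise of TET3 in KS and its difference between the treated lines use the same treated KS arrays.

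TET1 (chromosome 10, 68560337 to 68694487) was called in no comparison. It read 7.91, 8.04 and 7.80 on untreated KS arrays, 8.01, 7.82 and 7.97 on treated KS arrays, 7.94, 7.96 and 7.95 on untreated KA arrays and 7.88, 7.67 and 7.70 on treated KA arrays. In KA every treated array lay below every untreated one, with a change of -0.20 ± 0.08 (interval -0.38 to -0.02; limma adjusted p = 0.137). In KS the change was 0.02 (interval -0.16 to 0.20).

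TET2 (chromosome 4, 105145875 to 105279803) has 2 array rows, and they did not give the same calls. The brighter row read 7.25, 7.21 and 6.95 on untreated KS arrays, 7.37, 7.11 and 7.40 on treated KS arrays, 7.27, 7.32 and 7.41 on untreated KA arrays and 7.31, 7.32 and 7.39 on treated KA arrays. It was called in no comparison, with a line difference of 0.20 ± 0.10 (limma adjusted p = 0.158) and a change in KS of 0.16 ± 0.10 (adjusted p = 0.260).

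The dimmer TET2 row was tighter within groups. It read 6.64, 6.69 and 6.77 on untreated KS arrays, 7.07, 6.99 and 7.16 on treated KS arrays, 7.20, 7.29 and 7.25 on untreated KA arrays and 7.26, 7.22 and 7.22 on treated KA arrays. Untreated KS stood below the other 3 groups. In a fit over all rows with 1 gene the dimmer row was 1.46-fold higher in untreated KA than in untreated KS, by 0.55 ± 0.07 (limma adjusted p = 6.44e-05). It rose with decitabine in KS by 0.37 ± 0.07 (limma adjusted p = 0.00110) and changed in KA by -0.01 (interval -0.16 to 0.14).

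The responses of that dimmer row differed between the lines by -0.38 ± 0.10 (limma adjusted p = 0.0354). Its difference between the untreated lines, its rise in KS and this difference of responses use the same untreated KS arrays. Both rows pointed the same way in the line comparison and in KS. The array annotation lists 2 RefSeq transcripts for the dimmer row and 1 for the brighter one. Which transcripts account for the gap between the rows was not tested, and the calls of the dimmer row were examined after its values were seen.

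**Figure D3:**
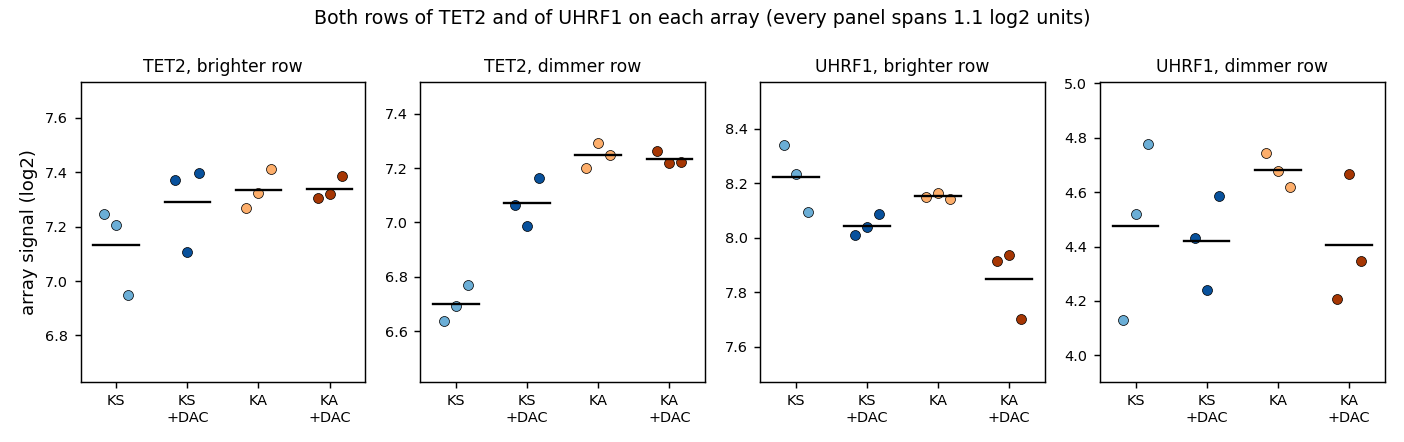
Signal (log2, vertical axis) of both array rows of TET2 and of UHRF1 on every array, by group (horizontal axis); points are arrays and bars are group means over 3 arrays. The dimmer TET2 row lies between 6.64 and 6.77 in untreated KS and between 6.99 and 7.29 on the other 9 arrays.

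MBD2, the reader that recruits NuRD (chromosome 18, 54151606 to 54224669), read 7.70, 7.77 and 7.51 on untreated KS arrays and 7.40, 7.18 and 7.16 on treated ones. In KA it read 7.53, 7.61 and 7.62 untreated and 7.31, 7.24 and 7.45 treated. In each line the treated arrays lay below the untreated ones. MBD2 fell in KS by 0.41 ± 0.09, or 1.33-fold (interval -0.61 to -0.22; limma adjusted p = 0.00363). In KA the change of -0.26 ± 0.09 (interval -0.45 to -0.06; limma adjusted p = 0.0818) was not called. It was called in 4 of 22 other settings, namely without untreated KS replicate 3 and treated KS replicate 1 together (adjusted p = 0.0348), under quantile normalisation (0.0388), with trended robust moderation (0.0362) and with array weights (0.0135). The MBD2 responses differed by 0.16 (interval -0.12 to 0.44).

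ZBTB33 (chromosome X, 120250812 to 120258398) separated the lines with or without the drug. It read 8.58, 8.67 and 8.49 on untreated KS arrays and 8.49, 8.31 and 8.59 on treated ones. It read 8.94, 8.97 and 9.11 on untreated KA arrays and 9.00, 9.00 and 8.86 on treated ones, all above every KS array. ZBTB33 was 1.34-fold higher in untreated KA, by 0.43 ± 0.09 (interval 0.24 to 0.62; limma adjusted p = 0.00252), and 1.40-fold higher in treated KA, by 0.49 ± 0.09 (interval 0.30 to 0.68; adjusted p = 0.000864).

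Decitabine left ZBTB33 without a call in either line, with changes of -0.12 (interval -0.30 to 0.07) in KS and -0.05 (interval -0.24 to 0.14) in KA. The genes whose centred values over the 12 arrays ran closest to those of ZBTB33 were PPM1K, a mitochondrial phosphatase, DEPDC1B, and SRP68, a subunit of the signal recognition particle. Their root mean square differences were 0.06, 0.07 and 0.07 log2 units.

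Groups that do not overlap were counted as well as calls. With decitabine 7 of the 10 genes had treated and untreated groups that did not overlap in KS, where 40.0% of all genes did, and 4 in KA, where 35.9% did. DNMT1, UHRF1 and MBD2 were below their untreated group on every treated array in both lines. The share of all genes that did so in both lines was not counted, so this is not a result about the set. Between the lines the groups did not overlap for 5 genes untreated and 4 treated, where 38.4% and 41.5% of all genes did.

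Partner genes of these 10 were taken from 6 lists, of which 43 genes had a row of their own. The lists were written with earlier results of these data known, so their counts here and below are a description only. With decitabine in KS 6 rose and 12 fell, or 41.9% of the 43 called where 30.3% of all genes were. In KA 6 rose and 5 fell, or 25.6% where 14.6% of all genes were called. Between the untreated lines 7 were higher in KA and 6 lower, or 30.2% against 25.7%, and between the treated lines 5 were higher and 6 lower, or 25.6% against 27.0%. The responses of 4 differed between the lines, or 9.3% against 6.74%.

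Among partners of maintenance methylation, USP7, the deubiquitinase that binds DNMT1 and UHRF1, fell most in KS. It read 9.01, 9.06 and 8.87 on untreated KS arrays and 8.48, 8.39 and 8.30 on treated ones, a fall of 0.59 ± 0.07 (limma adjusted p = 5.64e-05). In KA it fell by 0.30 ± 0.07 (adjusted p = 0.0150), a call lost without untreated KA replicate 1 or treated KA replicate 2 or 3. PCNA, the replication clamp to which DNMT1 binds, fell by 0.48 ± 0.09 in each line (limma adjusted p = 0.000800 in KS and 0.00295 in KA).

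LIG1, the replicative ligase that UHRF1 binds, was 1.40-fold lower in untreated KA than in untreated KS, by -0.49 ± 0.07 (limma adjusted p = 0.000192), and PCNA was lower by -0.32 ± 0.09 (adjusted p = 0.0138), a call lost without untreated KA replicate 1 or 2. CDCA7L, a relative of the HELLS activator CDCA7, was higher by 0.27 ± 0.07 (adjusted p = 0.00922). Of the 7 genes of that list, 3 fell in KS and 2 in KA, where 15.7% and 4.96% of all genes fell. CDCA7 was the third to fall in KS, by 0.23 (limma adjusted p = 0.0321), a call lost without any 1 of the KS arrays other than untreated replicate 3.

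Expression of 20 S-phase genes and 20 mitosis genes is given beside these, since DNMT1, UHRF1, HELLS and PCNA are used by replicating cells. With decitabine in KS 4 S-phase genes rose and 5 fell (median -0.03), and in KA 1 rose and 3 fell (median -0.06). Of the mitosis genes 12 rose in KS (median 0.38) and 11 rose in KA (median 0.32). Over all genes 14.6% rose and 15.7% fell in KS, and 9.66% rose and 4.96% fell in KA. The mean over the S-phase list was 8.60 to 8.69 on untreated KS arrays and 8.60 to 8.63 on treated ones, while the mitosis mean went from 8.74 to 8.81 up to 9.04 to 9.13. Between the untreated lines 5 S-phase genes were higher in KA and 5 lower (median -0.01), and 1 mitosis gene was higher and 6 were lower (median -0.15). Over all genes 11.6% were higher and 14.1% lower in untreated KA. The mitosis mean was 8.58 to 8.64 on untreated KA arrays, below the untreated KS arrays, while the S-phase means of 8.57 to 8.66 overlapped those of untreated KS. The part of the cell cycle in the changes of the 10 genes and their partners was not tested.

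Of the other genes around TET activity and base excision repair, 3 of 10 rose in KS and 4 of 10 in KA. Over all genes 14.6% rose in KS and 9.66% in KA. IDH2, a mitochondrial isocitrate dehydrogenase that makes the 2-oxoglutarate the TET enzymes consume, had the largest change of the 43 partner genes. It read 7.02, 6.79 and 7.57 on untreated KS arrays and 8.57, 8.86 and 8.81 on treated ones, a rise of 1.62 ± 0.15 or 3.08-fold (limma adjusted p = 1.22e-05). On KA arrays it read 8.06, 8.14 and 8.10 untreated and 8.72, 8.69 and 8.60 treated, a rise of 0.58 ± 0.15 (adjusted p = 0.0240).

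IDH2 was higher in untreated KA than in untreated KS by 0.97 ± 0.15 (limma adjusted p = 0.000382), and the response was smaller in KA by -1.05 ± 0.22 (interval -1.51 to -0.58; adjusted p = 0.0155). The line difference, the difference of responses and the rise of IDH2 in KS use the same untreated KS arrays. The KA rise of IDH2 lost its call when any 1 of the 6 KA arrays was left out (largest adjusted p = 0.0745). IDH1, the cytosolic enzyme, rose in KA by 0.41 ± 0.07 (limma adjusted p = 0.00145), where its arrays went from 9.35, 9.36 and 9.37 to 9.73, 9.76 and 9.82. In KS the change of IDH1 was -0.04, and the difference of the responses was 0.45 ± 0.09 (limma adjusted p = 0.0157).

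OGT, the glycosyltransferase that TET proteins bind, rose in both lines, by 0.59 ± 0.07 in KS (limma adjusted p = 3.01e-05) and 0.33 ± 0.07 in KA (adjusted p = 0.00559). NEIL3, a repair glycosylase, rose in KS by 0.48 ± 0.08 (adjusted p = 0.000399). NEIL2, another glycosylase, was 1.33-fold higher in untreated KA than in untreated KS (limma adjusted p = 0.00117).

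Of 11 subunits of NuRD, the complex that MBD2 recruits, 6 fell and 2 rose in KS, and 2 fell and 1 rose in KA. Over all genes 15.7% fell and 14.6% rose in KS, and 4.96% fell and 9.66% rose in KA. Under the other settings 3 to 6 subunits fell in KS and 0 to 2 in KA. GATAD2A, the subunit that binds MBD proteins, read 9.18, 9.04 and 9.05 on untreated KS arrays and 8.42, 8.38 and 8.31 on treated ones. It fell by 0.72 ± 0.07 in KS, or 1.65-fold (limma adjusted p = 9.02e-06), and by 0.22 ± 0.07 in KA (adjusted p = 0.0428), and these responses differed by 0.51 ± 0.09 (adjusted p = 0.00930). The KA call of GATAD2A was lost under 11 of 22 other settings, which included leaving out any 1 of the 6 KA arrays.

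MTA2, another NuRD subunit, fell in KS by 0.45 ± 0.07 (limma adjusted p = 0.000306), and CHD3, one of its ATPases, rose by 0.36 ± 0.06 (adjusted p = 0.000939). MTA1 was 1.42-fold higher in untreated KA than in untreated KS, by 0.50 ± 0.07 (limma adjusted p = 0.000188), and 1.75-fold higher in treated KA than in treated KS. MBD3, the MBD protein of a separate NuRD form, fell in KA by 0.34 ± 0.07 (limma adjusted p = 0.00705) and in KS by 0.25 ± 0.07 (adjusted p = 0.0195), where the call was lost without untreated or treated KS replicate 1. MBD4, a thymine glycosylase that binds methyl-CpG, rose in KS by 0.28 ± 0.07 (adjusted p = 0.00969), a call lost without untreated KS replicate 3 and treated KS replicate 1 together (adjusted p = 0.0910).

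Of 3 measured genes for the corepressor complex that ZBTB33 recruits, TBL1XR1 and TBL1X were lower in untreated KA than in untreated KS, by -0.37 ± 0.11 and -0.33 ± 0.08 (limma adjusted p = 0.0280 and 0.00695). TBL1XR1 lost that call without untreated KS replicate 1 or 2 or untreated KA replicate 1 or 3 (largest adjusted p = 0.115). In the supply of the methyl donor, MAT2A, which makes S-adenosylmethionine, read 11.10, 11.16 and 10.95 on untreated KS arrays and 10.17, 10.09 and 10.25 on untreated KA arrays. It was 1.87-fold lower in KA, by -0.90 ± 0.09 (limma adjusted p = 6.06e-06), and fell with decitabine in KS by 0.67 ± 0.09 (adjusted p = 7.94e-05). Both comparisons use the same untreated KS arrays. With decitabine in KA the change of MAT2A was -0.19 ± 0.09 (limma adjusted p = 0.179) and was not called. The MAT2A responses differed by 0.48 ± 0.12 (limma adjusted p = 0.0341), a call that not every other setting kept.

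**Figure D4:**
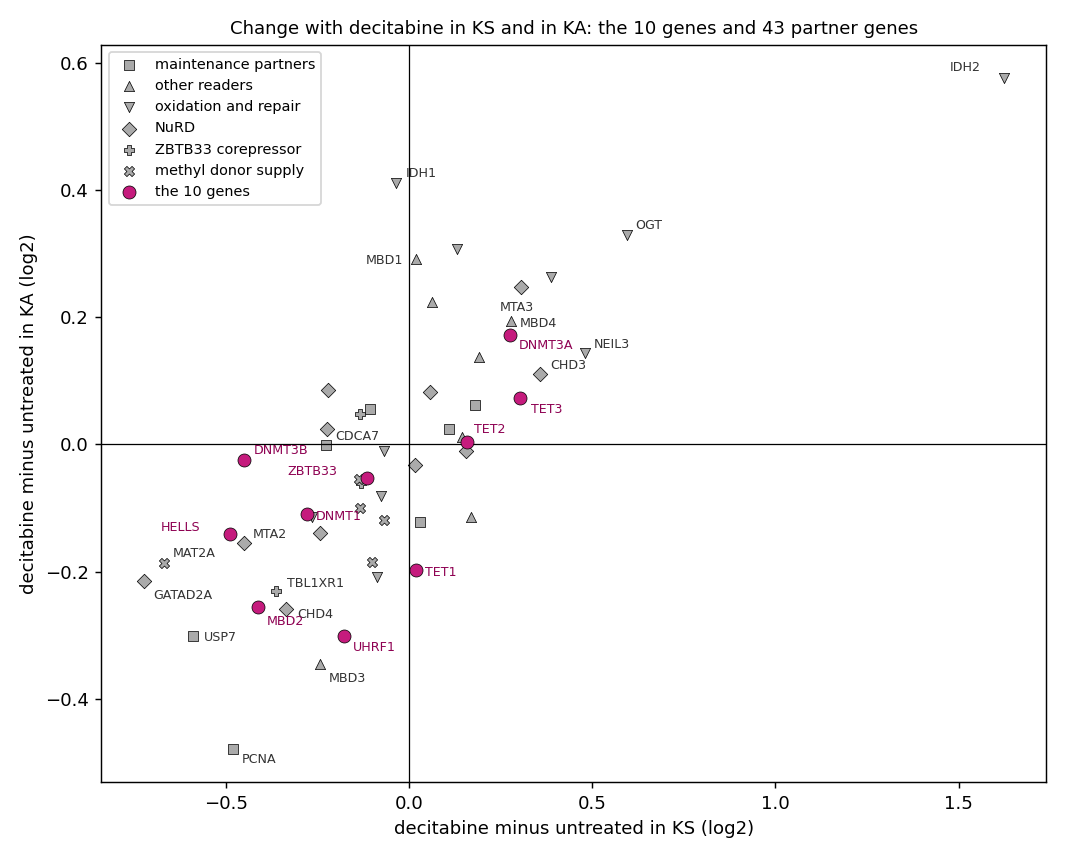
Change with decitabine in KA (log2, vertical axis) against that in KS (log2, horizontal axis) for the 10 genes (filled circles) and 43 partner genes (grey, shape by list); each point is 1 gene, and the partner genes that are named passed the test in at least 1 line. IDH2 lies at 1.62 in KS and 0.58 in KA, and DNMT3B at -0.45 and -0.02.

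A list of 10 germline genes whose promoters are methylated in somatic cells was read beside these. In KS 6 of them rose (median change 0.73), where 14.6% of all genes did. In KA 5 rose (median 0.44), where 9.66% of all genes did. The list was chosen with earlier results of these data known, so its counts are a description only. Methylation itself was not measured on these arrays.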

How the data were processed

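Total RNA of 12 samples was biotin labelled and hybridised to Affymetrix arrays, per the labels' protocols. The authors deposited 1 table of log2 signals for 33297 rows (0.226 to 13.2), used without further scaling; background correction, summarisation and normalisation are not given in the sources used here. Of the rows, 19460 carried 1 gene symbol, 1754 several and 12083 none. Symbols came from the platform annotation, which can be old, and were updated through Entrez IDs to RefSeq GRCh38.p14 (19429 rows matched). The brightest row stood for a gene (769 genes had more than 1), giving 18417 genes.

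Group means of the 4 groups were fitted over all 12 arrays with limma 3.58.1 (R 4.3.3; lmFit and eBayes, 8 residual degrees of freedom), and p-values were adjusted by Benjamini-Hochberg over all genes, with a call at 0.05. The script was tested on simulated data. The number of arrays limits the precision. All 10 genes lay above the highest lower quartile of an array, 3.39, in every group. Values after ± are standard errors.

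The members and the lists were chosen with earlier results of these data known. Named partners are at most the 3 called genes with the largest change per list and comparison, and genes of like pattern the 3 with the smallest root mean square difference for members whose group means span at least 0.5. 7 listed genes without a row of their own were not analysed here. Alternatives were median centring, quantile normalisation, the mean of all rows per gene, no dim genes, trended robust moderation, only the groups compared, array weights, the replicate number as a block, each array left out, and, added after seeing the data, untreated KS replicate 3 and treated KS replicate 1 both left out, and the dimmer rows of TET2 and UHRF1.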

Additional observations from a re-analysis of the deposited data

Results flagged for a closer look

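The DNMT3B response to decitabine was marked because it differed between the lines by its own test. The response in KA minus that in KS was 0.43 ± 0.12 (SE, 3 arrays per group; 95% interval 0.18 to 0.68; limma adjusted p = 0.0453). DNMT3B fell in KS by 0.45, with all 3 treated arrays below all 3 untreated ones, and changed in KA by -0.02, with overlapping groups. The call was kept in 9 of 21 other settings, and the sign in all 21.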

How the results depend on the processing

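Of the 12 calls among the 10 genes, 9 were kept in every one of their 22 alternatives: HELLS and ZBTB33 between untreated lines, DNMT1, DNMT3B, HELLS, TET3 and MBD2 with decitabine in KS, and DNMT3B and ZBTB33 between treated lines. UHRF1 in KA was called in 17 of 22, TET3 between treated lines in 19 of 22 and the difference of DNMT3B responses in 9 of 21. These settings are not separate tests. Leaving out an array of a group not compared, or taking the dimmer row of another gene, leaves the size of a change as it was. Such settings can alter only its spread or its adjusted p. Of the 12 arrays left out singly, UHRF1 in KA lost its call for 4, all of them KA arrays.

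The count of called genes among the 10 was 3 between untreated lines and 6 with decitabine in KS with the mean of all rows, without dim genes, with array weights, without the KS arrays that lay between the groups and with the dimmer rows. Trended robust moderation gave 6 in KS and 4 between treated lines, and only the groups compared gave 2 between treated lines. Under quantile normalisation it was 4 between untreated lines, 2 with decitabine in KA and 0 for the difference of responses, where DNMT3B was at 0.35 (limma adjusted p = 0.0713). With decitabine in KA it was 2 with trended robust moderation, 3 with array weights, 2 without the between-lying KS arrays and 0 with the dimmer rows. For the difference of responses it was 2 without those KS arrays and 2 with the dimmer rows. Leaving out 1 array gave 2 to 3 calls between untreated lines, 0 to 1 with decitabine in KA, 5 to 7 in KS, 0 to 2 for the difference and 2 to 3 between treated lines.

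The cause of these shifts was not tested. No called change reversed. Of those not called, TET1 in KS was -0.0096 with median centring and -0.078 without the between-lying KS arrays, and between untreated lines -0.025 without them. DNMT3B between untreated lines was 0.036 under quantile normalisation and 0.00079 with array weights, and TET3 there 0.037 under quantile normalisation. TET2 in KA was -0.0095 under quantile normalisation, -0.0041 with the mean of all rows and -0.012 with the dimmer row, and UHRF1 between untreated lines 0.067 with the mean of all rows and 0.20 with the dimmer row.

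With single arrays left out, the uncalled changes that reversed ran from -0.060 to 0.028 (DNMT3B, untreated lines), -0.025 to 0.092 (TET1, untreated lines), -0.040 to 0.077 (TET1 in KS), -0.030 to 0.042 (TET2 in KA), -0.099 to 0.039 (DNMT3B in KA), -0.014 to 0.12 (ZBTB33, difference) and -0.046 to 0.098 (TET2, treated lines).

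Same-numbered arrays of different groups correlated at -0.26 to 0.19 in their deviations, so the replicate numbers were not taken to pair samples. With the replicate number as a block the difference of responses had 0 calls among the 10 genes (DNMT3B limma adjusted p = 0.0677) and 778 over all genes, against 1241 without it. Over all genes, leaving out 1 array gave 564 to 2049 calls for the difference and 1653 to 3020 in KA. Array weights gave 4417 in KA and 2288 for the difference, trended robust moderation 1918 and leaving out both KS arrays 2035 for the difference. Quantile normalisation turned the split between untreated lines from 2133 higher and 2602 lower to 2610 and 2186, and that of the difference from 847 and 394 to 611 and 522. Of 49 calls of partner genes, 31 were kept in every alternative and none reversed.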

Other observations

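Genes were also described by the words in their RefSeq start windows. Of 784 tested genes with one of the E2F words used above, 114 rose and 182 fell with decitabine in KS (14.5 and 23.2%; median change -0.03), where 14.6 and 15.7% of all genes did (median -0.01). In KA 64 rose and 69 fell (8.16 and 8.80%; median -0.02), where 9.66 and 4.96% of all genes did. Between the lines 107 were higher and 157 lower in untreated KA (13.6 and 20.0%; median -0.01), where 11.6 and 14.1% of all genes were. In treated KA 147 were higher and 137 lower (18.8 and 17.5%; median 0.00), where 15.1 and 11.9% of all genes were. The words stood in 11 of 17 S-phase genes with a listed window, where 3.99% of all genes with a listed window held one.

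Of 264 tested genes with the ZBTB33 word, 28 were higher and 55 lower in untreated KA than in untreated KS (10.6 and 20.8%; median -0.05), where 11.6 and 14.1% of all genes were (median 0.02). Between the treated lines 37 were higher and 43 lower in KA (14.0 and 16.3%; median 0.01), where 15.1 and 11.9% of all genes were. With decitabine in KS 29 rose and 63 fell (11.0 and 23.9%; median -0.07), beside 14.6 and 15.7% of all genes. In KA 17 rose and 21 fell (6.44 and 7.95%; median -0.02), beside 9.66 and 4.96%. The untreated line comparison and the KS comparison use the same untreated KS arrays. Genes with an E2F word had similar lower shares, 20.0% between the untreated lines and 23.2% with decitabine in KS. Those genes had higher shares of 13.6 and 14.5% and medians of -0.01 and -0.03 in the same comparisons. Genes holding both kinds of word were not counted. Whether any of these shares is particular to the ZBTB33 word was not tested. The shares of all genes include genes without a listed window. Whether ZBTB33 was bound at any of these windows was not measured.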
